A study of Caenorhabditis elegans with 4 samples.

Results

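The regions described here are the RNA polymerase II (Pol II) regions on the arms of Caenorhabditis elegans chromosome V, its outer parts, each as long as the centre between them. They are the lines of the authors' combined region list on chromosome V whose midpoint lies below position 6968313 or above position 13936623 of the WS220 build. The rule finds 476 of the 9051 regions in that list, 262 on the left arm and 214 on the right arm. The centre of the chromosome holds 507 more. The rule uses position alone and no measured strength. On the left the last region inside the boundary was V:6901030-6901637 (q = 3.19e-09) and the first outside it V:6997012-7001131 (q = 3.81e-57). On the right the nearest inside was V:13962084-13962483 (q = 1.67e-05) and the nearest outside V:13935498-13935697 (q = 8.94e-04).

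Chromatin bound by Pol II was pulled down with the mouse monoclonal antibody 8WG16 and sequenced (chromatin immunoprecipitation, ChIP-seq). The antibody binds the heptapeptide repeats of the largest Pol II subunit, AMA-1. There were 2 Pol II ChIP samples and 2 inputs, which are sonicated chromatin with no antibody step. All 4 came from whole hermaphrodites at the third larval stage (L3), raised at 20 °C. By the labels every sample is of strain OP54, which carries the unc-119(ed3) III mutation and the integrated transgene wgIs54, made by bombardment and holding unc-119(+) together with egl-5 fused to TY1, EGFP and 3xFLAG. The strain description in the labels names an EOR-1 fusion instead, and OP81 is the strain in the sample table, so which transgene the animals carried is not settled. Whole animals were used, so a region present in few cells and a region weakly occupied in many cells cannot be told apart.

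Worm autosomes have a gene-dense centre flanked by arms that carry more repeats, more meiotic recombination and more histone H3 lysine 9 methylation, and that lie nearer the nuclear envelope. Chromosome V is known for large clustered families of chemoreceptor genes, many of which are used in few neurons. Pol II crosslinks to genes that are being transcribed and to promoters where it is held, and 8WG16 favours the form with little phosphate on its repeats.

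Replicate 1 had 3262273 uniquely mapped ChIP reads and replicate 2 had 4623128, against 1912753 and 1414731 in the inputs. These were 69.9% and 71.3% of all ChIP reads but only 27.8% and 19.5% of all input reads. The part of this low input share in the calls was not tested. The authors called a combined list on both ChIP replicates merged and a list for each replicate, against input, for which the deposited sample table lists 1 merged alignment. A region has a position and a q-value, and all q-values are the authors' and lie below 0.01. The inputs have no region list here, so they enter only through these calls. Each list also starts below its own strongest regions. Ranks recovered from the q-values put 262 stronger regions outside the combined list, 152 outside the replicate 1 list and 71 outside the replicate 2 list, and how many of these lie on chromosome V is not known. A place with no combined region is therefore not shown to lack Pol II, and each such place below was looked up in both replicate lists.

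Pol II regions were sparse on both arms. The arms held 34.2 regions per Mb and the centre of the same chromosome 72.8 per Mb, or 0.469 times as many (exact binomial test, two-sided, p = 6.82e-32; Benjamini-Hochberg adjusted over 5 tests, p = 3.41e-31). This p covers counting error only and is too small, since neighbouring regions are not independent. Cover, the share of bases inside regions, was 3.94% on the arms and 7.22% in the centre. In replicate 1 the arms held 22.3 regions per Mb and the centre 52.7, and in replicate 2 the arms held 30.1 and the centre 57.5. Cover averaged 2.85% ± 0.697 on the arms and 5.73% ± 1.69 in the centre (SD, n = 2 replicates). Replicate 1 had the higher cover in both, with 3.34% on the arms and 6.92% in the centre, against 2.35% and 4.53% in replicate 2. The difference had the same direction within each replicate. The uniquely mappable length of arms and centre for 36-base reads is not known here, and its part in the low cover of the arms was not tested.

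Set beside the arms of the other chromosomes, cut in the same way, both arms of chromosome V lay at the sparse end. Left-arm cover was 4.11% and right-arm cover 3.77%, the second lowest and the lowest of all arms, while the other 10 ranged from 5.19% to 8.78% in the combined list. The same 2 places in the order were held in replicate 1 (3.63% and 3.05%, others from 4.41%) and in replicate 2 (2.51% and 2.20%, others from 2.79%). By number of regions the right arm was again lowest, with 30.7 per Mb, and the left arm came after it with 37.6 per Mb, except that the left arm of chromosome II lay between them with 33.8 per Mb. This order of arms was not tested.

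**Figure D1:**
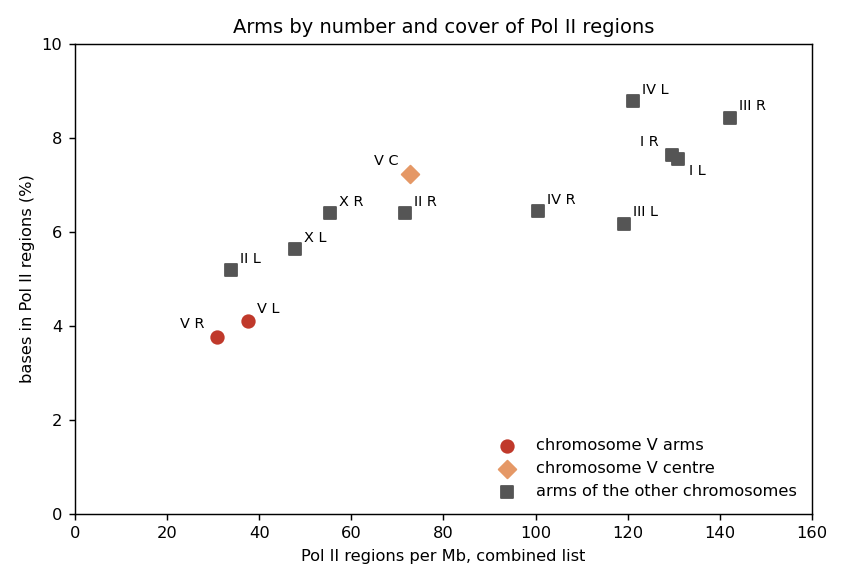
Regions per Mb (horizontal axis) against the share of bases in Pol II regions (vertical axis, %) in the combined list, for the arms of chromosome V (circles), its centre (diamond) and the arms of the other chromosomes (squares); L, R and C mark left arm, right arm and centre. The arms of chromosome V sit lowest, at 4.11% and 3.77%, with the chromosome V centre at 7.22%.

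Widths and q-values of single regions differed little in their medians between arms and centre, a comparison that was not tested. Median width was 629 bp on the arms (quartiles 288 and 1374 bp) and 528 bp in the centre, against 380 bp over all chromosomes. The median q was 1.87e-06 on the arms and 1.09e-06 in the centre, and 8.67e-09 over the whole list. Of the 476 arm regions, 82 (17.2%) had a q below 1e-20 and 41 (8.61%) a q below 1e-50, where the shares over all chromosomes were 24.2% and 10.6%. In the centre they were 18.5% and 8.88%. Wide regions of 2500 bp or more numbered 61 on the arms (12.8% of 476, against 10.7% in the centre and 7.05% over all chromosomes) and carried 49.0% of the bases of all arm regions. At the other end, 34 arm regions (7.14%, against 3.94% in the centre and 6.53% over all chromosomes) were narrower than a 36-base read. Width and strength went together: the Spearman correlation of width with −log10 q was 0.668 across the 476 arm regions, which share libraries and are not independent.

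The left arm held 37.6 regions per Mb and the right arm 30.7, or 1.22 times as many on the left (exact binomial test, two-sided, p = 0.0311, adjusted p = 0.0778), which does not pass the threshold of 0.05 after adjustment. Replicate 1 listed 183 regions on the left arm and 128 on the right, and replicate 2 listed 239 and 180. In these 2 lists the left arm was higher by 1.43 and 1.33 times, with adjusted p = 0.00537 and 0.0114 in the same exact test. Here too the p-values cover counting error only and are too small, since regions cluster, and with combined regions merged below 2000 bp the value was 1.18 (exact binomial test, adjusted p = 0.163). Cover was 4.11% on the left and 3.77% on the right in the combined list, less far apart than the numbers of regions. Right-arm regions were slightly wider, with a median of 604.5 bp on the left and 644 bp on the right, and the widest was 7121 bp on the left and 12090 bp on the right. Regions with q below 1e-50 numbered 22 on the left (8.40% of left-arm regions) and 19 on the right (8.88%), against 10.6% over all chromosomes.

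Cover varied widely along each arm. Windows of 500 kb were counted from each chromosome end, 14 to an arm, with a shorter innermost one. On the left arm the fullest full-length window was V:5500001-6000000, with 32 regions and 8.62% cover, near the centre of the chromosome. Its emptiest was V:3000001-3500000, with 3 regions and 0.551%. On the right arm the fullest was the last window before the chromosome end, V:20404936-20904935, with 35 regions and 7.71% cover. Its emptiest was V:16904936-17404935, with 4 regions and 0.584%. The shorter innermost windows had 5.95% on the left and 7.85% on the right.

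In the replicates these same windows, chosen on the combined list, were also far apart. V:5500001-6000000 was covered to 8.11% in replicate 1 and 6.06% in replicate 2, and V:3000001-3500000 to 0.0908% and 0.278%. V:20404936-20904935 had 6.94% and 6.82%, and V:16904936-17404935 had 0.152% and 0.506%. They were not always the extremes: in replicate 1 V:6000001-6500000 had 8.17%, and in replicate 2 V:17404936-17904935 had 0.377%, with 1 region there and 2 in the combined list. Across the 28 windows the covers of the 2 replicates correlated with Pearson's r = 0.894 and Spearman's rho = 0.904, a description of windows that share libraries and are not independent. Replicate 1 had the higher cover in 23 of the 28. The right-arm window V:17904936-18404935 had 6.80% in the combined list but 2.79% in replicate 1 and 2.26% in replicate 2. It was picked out after its values were seen.

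Divided into 3 parts after the profile was seen, each arm had, by the totals of these parts, a denser tip, a sparse middle and a denser inner part. The outermost window held 54 regions per Mb on the left and 70 on the right. The 9 windows between held 24.4 and 21.1 per Mb, and the 4 innermost held 63.5 and 42.7. Combined cover in these 3 parts, from the tip inward, came to 5.10%, 2.89% and 6.66% on the left and 7.71%, 2.59% and 5.46% on the right. Replicate 1 had 4.45%, 2.43% and 6.17% on the left and 6.94%, 1.70% and 5.14% on the right. Replicate 2 had 2.71%, 1.87% and 3.92% on the left and 6.82%, 1.36% and 2.95% on the right. Taken as a whole, the middle was lowest on both arms in all 3 lists. Single windows departed from this pattern. In the combined list the left middle window V:4500001-5000000 had 27 regions and 6.89% cover, above the left tip. The left inner window V:5000001-5500000 had only 12 regions and 3.78% cover. Only the right tip exceeded the inner part in all 3 lists, whereas the left tip was below it in all 3.

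**Figure D2:**
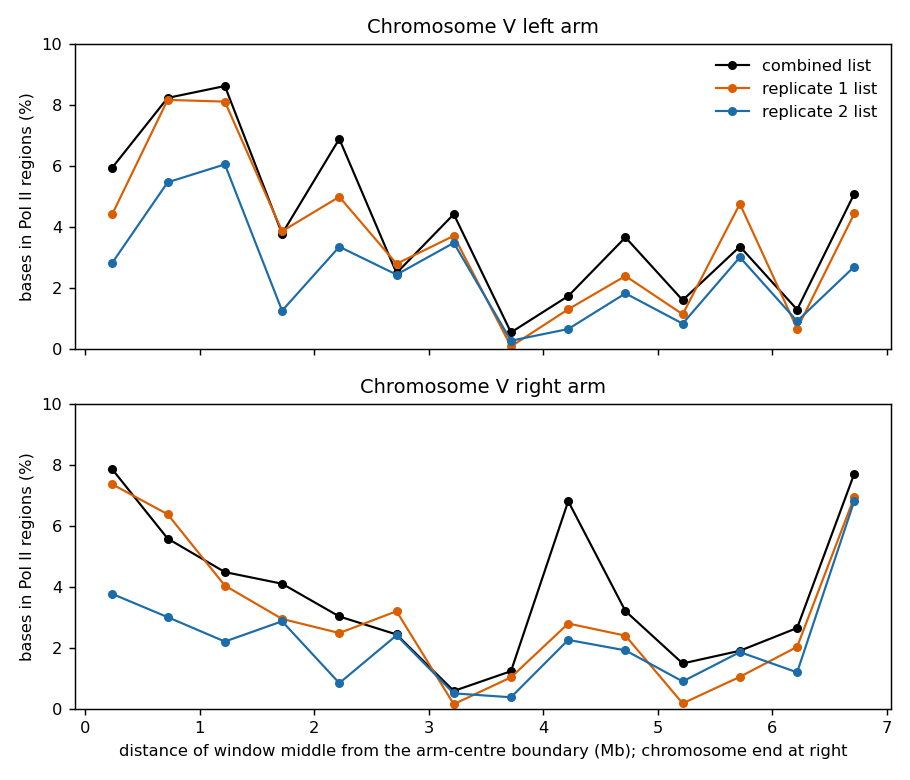
Share of bases in Pol II regions (%) in windows of 500 kb, plotted by the distance of the window's middle from the boundary between arm and centre (Mb), so that the chromosome end is at the right of each panel; lines join the combined, replicate 1 and replicate 2 lists. All 3 lists dip in the middle of each arm, to 0.551% on the left and 0.584% on the right in the combined list, and the right arm rises to 7.71% at its end.

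The order of regions by q holds only within the combined list, which lacks its strongest regions, and some places found in the replicate lists alone had lower q there than the regions named here. On the left arm the lowest combined q was that of V:2064333-2070272, 5940 bp wide (q = 4.63e-281), with 1.31e-167 in replicate 1 and 2.78e-109 in replicate 2. The next combined region was 4.37 kb away outward and 56.3 kb away inward. The second, V:1261450-1265720 (q = 4.74e-233), had 7.19e-165 and 5.76e-41. The third, V:6098598-6101605 (q = 4.23e-228), had 1.36e-147 and 1.08e-68. The fourth was V:5502467-5507957 (q = 1.05e-182), with 6.01e-98 and 7.38e-79. The fifth was V:3770250-3777370 (q = 3.09e-164), with 1.07e-107 in replicate 1 and 3 regions in replicate 2, the best at 3.44e-30. All 5 had the lower q in replicate 1.

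The lowest q on the right arm, again within the combined list, was that of V:19607295-19612738, 5444 bp wide with q = 5.29e-301. It had q = 3.68e-170 in replicate 1 and 2.31e-140 in replicate 2, where it was split into 2 regions. Next came V:15185526-15188995, 3470 bp wide (q = 2.62e-300), which the replicates gave with q = 1.07e-160 and 3.84e-147. The third was V:20844376-20848376 (q = 2.11e-272), close to the chromosome end, with 1.34e-124 and 3.18e-131. The fourth was V:14011705-14014123 (q = 2.05e-239), with 1.72e-107 and 9.25e-125. All 4 were found in both replicates, with the lower q in replicate 1 for the first pair named and in replicate 2 for the other pair. The fifth, V:14654440-14661095 (q = 1.92e-187), was uneven, with 5.59e-132 in replicate 1 and 4 separate regions in replicate 2, the best at 2.35e-14.

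The widest combined regions were in part those with the lowest q. On the right arm they were V:20408358-20420447 (12090 bp, q = 1.09e-99), V:15656517-15666170 (9654 bp, q = 1.90e-57) and V:16776324-16784769 (8446 bp, q = 3.99e-77). The first of these was broken into 2 regions in replicate 1 and 4 in replicate 2, and the second into 3 in replicate 2. On the left arm the widest was the fifth-ranked region V:3770250-3777370 (7121 bp), followed by the top-ranked one and by V:6425701-6431588 (5888 bp, q = 7.51e-111). The right end also carried the arm's largest run of close regions. From 20395849 to 20420447, 6 regions less than 5 kb apart covered 57.7% of 24.6 kb, with 49.1% in replicate 1 and 31.0% in replicate 2. The left arm's largest run, from 5999837 to 6026553, held 9 regions over 26.7 kb with 35.5% cover, 32.1% in replicate 1 and 15.5% in replicate 2. Runs of 5 or more such regions held 19.1% of left-arm regions, 7.48% of right-arm regions and 23.9% of centre regions.

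Long stretches without a region in the combined list took up more of both arms than of the centre. Stretches of at least 100 kb numbered 13 on the left arm and 16 on the right, against 5 in the centre, and together spanned 33.6% of the left arm, 47.8% of the right arm and 8.28% of the centre. The left arm lost 2.34 Mb to them and the right arm 3.33 Mb. In replicate 1 they took 43.3%, 64.5% and 16.9% of the same 3 parts, and in replicate 2 they took 40.8%, 55.3% and 13.6%. Stretches empty in all 3 lists at once numbered 12 on the left arm, 16 on the right and 5 in the centre, and took 28.7%, 42.1% and 8.19%. On the 10 arms of the other chromosomes, each shorter than an arm of chromosome V, there were between 0 and 10 such stretches in the combined list, 42 in all. As a share of length the left arm of chromosome II was above the left arm of chromosome V, with 40.0% by the combined list, 54.1% by replicate 1 and 49.2% by replicate 2, and below the right arm. The median gap was 7.51 kb on the left arm, 9.32 kb on the right and 4.05 kb in the centre, and 44.1% of arm gaps were below 5 kb.

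The longest was V:17268008-17846706 on the right arm, 578.7 kb with no region in the combined list or in either replicate. On the left arm the longest was V:2731562-3195037, 463.5 kb, in which replicate 2 alone listed 1 region of 230 bp (q = 0.00282). It was followed by V:2282084-2600562, 318.5 kb, empty in all 3 lists. The next on the left were V:3777371-3984195 (206.8 kb), V:3195492-3399626 (204.1 kb) and V:3402851-3578721 (175.9 kb). Replicate 2 listed 4 regions of at most 500 bp in the first of these and 1 region in the second, while the third was empty in both replicates. On the right arm, V:15191639-15511426 (319.8 kb), V:19623205-19897146 (273.9 kb), V:18267097-18533696 (266.6 kb) and V:16095770-16351813 (256.0 kb) came after the longest. The first and second of these held 1 replicate 2 region each, of 396 and 371 bp, and the fourth held 1 replicate 1 region of 25 bp. The third held none.

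Of all 29 stretches on the arms, 15 held no further region in either replicate, 7 on the left and 8 on the right. Another 10 held regions of replicate 2 alone, 2 held regions of replicate 1 alone and 2 held regions of both. Replicate 1 placed 5 regions in them and replicate 2 placed 19, with a median q of 0.00229 and 0.00132, and 2 and 4 of them had q below 1e-20, all in the 2 stretches held by both. V:3985364-4142679 on the left held a replicate 1 region of 5364 bp, V:4130506-4135869, with q = 2.51e-204, and replicate 2 regions there reached q = 4.70e-80. V:16580435-16776323 on the right held a replicate 1 region of 7028 bp, V:16591898-16598925, with q = 3.08e-192, and replicate 2 reached 2.56e-134. Neither place has a combined region, so these 2 stretches are empty in the combined list but not in the replicates. As every list lacks its strongest regions, the 15 stretches without a replicate region are not shown to lack Pol II.

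**Figure D3:**
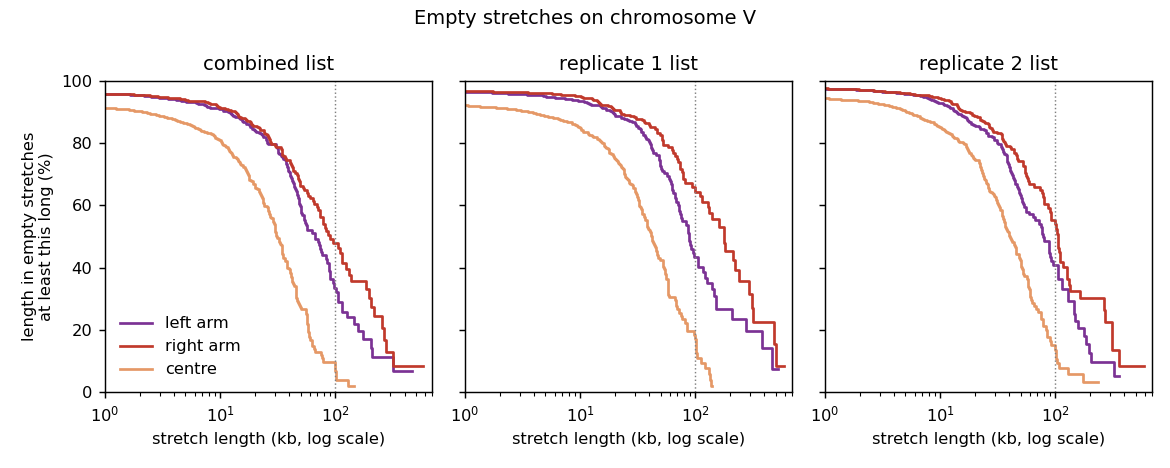
Share of the length of each part of chromosome V (%) that lies in empty stretches at least as long as the value on the horizontal axis (kb, log scale), for the left arm, the right arm and the centre in each of the 3 lists; the dotted line marks 100 kb. At that length the combined list gives 33.6% of the left arm, 47.8% of the right arm and 8.28% of the centre, and the right arm is highest in all 3 lists.

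Isolated regions, at least 50 kb from the nearest other combined region on both sides, numbered 19 on the arms (12 left, 7 right; 3.99% of arm regions) and 2 in the centre (0.394%). The higher number on the left was not seen in the single lists, with 17 on each arm in replicate 1 and 9 on each arm in replicate 2. Their strength on the 2 arms was as follows. On the left 8 of 12 were found in both replicates and 4 had q below 1e-20. On the right 1 of 7 was found in both and none had q below 1e-20, the lowest being 1.32e-05. Of all left-arm regions, 45.0% were found in both replicates and 19.1% had q below 1e-20. The same shares were 37.4% and 15.0% of all right-arm regions, and 44.9% and 24.2% over all chromosomes. The median width of the isolated regions was 811 bp on the left and 337 bp on the right. With so few isolated regions, these differences were not tested.

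The most remote left-arm region was V:3195038-3195491, 454 bp wide, 204.1 kb from its nearest neighbour. Its combined q was 5.73e-05, and the replicate lists gave 0.00588 (replicate 1) and 0.00190 (replicate 2). It was followed by V:3984196-3985363 (157.3 kb, q = 2.60e-09), V:1743579-1743965 (76.8 kb, q = 2.28e-10) and V:5204255-5204549 (66.1 kb, q = 1.92e-08), each found in both replicates, and by V:1133577-1133597, 21 bp wide (62.5 kb, q = 0.00174), found in replicate 2 alone. Strong isolated regions were also seen. V:1261450-1265720, with the second-lowest combined q listed on the left arm, was 54.0 kb from the nearest combined region but 12.1 kb from a replicate region, and V:773320-775513, 2194 bp wide with q = 1.10e-136, was 50.3 kb away. V:773320-775513 had q = 1.81e-65 in replicate 1 and 4.71e-70 in replicate 2.

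On the right arm the most remote was V:16580405-16580434, only 30 bp wide (q = 0.00416), 185.0 kb from the next combined region and found in neither replicate. It lay 11.5 kb from the strong replicate region V:16591898-16598925 given above, so it was not remote in the replicate lists. V:17128050-17128262, 213 bp wide (q = 8.87e-05), was 136.3 kb away and the only isolated right-arm region in both replicates, with q = 1.56e-04 in replicate 1 and 0.00406 in replicate 2. V:19332057-19332078, 22 bp wide (95.9 kb, q = 7.18e-04), was found in neither. V:16910921-16912613 (85.9 kb, q = 3.21e-04) was found in replicate 2 alone, and V:19124716-19126177 (71.0 kb, q = 7.99e-05) in neither, though a replicate region lay 5.13 kb away. When neighbours in any of the 3 lists were counted, 13 of the 19 stayed isolated, 8 on the left and 5 on the right.

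**Figure D4:**
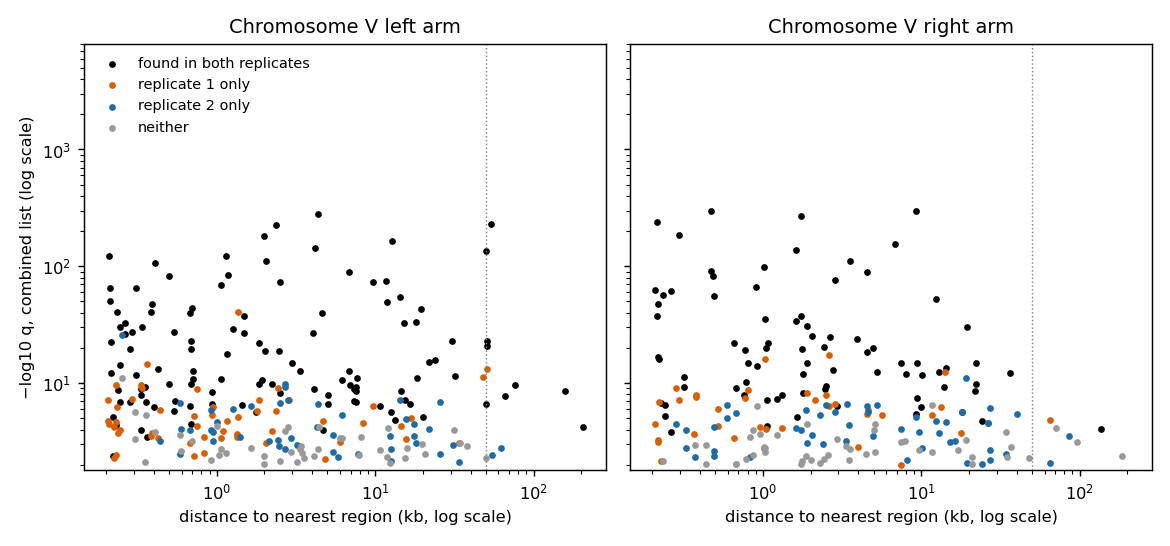
Distance from each arm region to its nearest combined neighbour (kb, log scale) against its −log10 q in the combined list (log scale), coloured by the replicate lists in which it was found; the dotted line marks 50 kb. To the right of the line the left arm has 12 regions, 8 of them found in both replicates, and the right arm has 7, of which 1 was. Of all left-arm and right-arm regions, 45.0% and 37.4% were found in both.

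A combined region was called found in a replicate when it overlapped a region of that list by at least 1 bp. Of the 476 arm regions, 198 were found in both replicates (41.6%, Wilson 95% interval 37.3 to 46.1), where the share over all chromosomes was 44.9%. In the centre 219 of 507 were (43.2%, interval 39.0 to 47.5), a difference of -1.60 percentage points that did not pass the threshold (two-sided Fisher's exact p = 0.651, adjusted p = 0.814). Found in neither were 93 arm regions (19.5%, interval 16.2 to 23.3) and 98 centre regions (19.3%, interval 16.1 to 23.0). Arms against centre gave Fisher's exact p = 0.936 and adjusted p = 0.936. Over all chromosomes the share was 16.1%, and the arms were not tested against it. Left-arm regions were found in both in 45.0% of cases (118 of 262) and right-arm regions in 37.4% (80 of 214; Fisher's exact p = 0.0937, adjusted p = 0.156). Intervals and p-values cover counting error only.

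The share found in both replicates went with strength, in a list called on the merged reads of these same replicates. Of the 82 arm regions with q below 1e-20, 80 were in both replicates (97.6%), of the 182 with q between 1e-20 and 1e-05, 106 were (58.2%), and of the 212 weaker ones, 12 were (5.66%). The matching shares were 94.7%, 59.5% and 5.16% in the centre, and 95.9%, 46.5% and 3.43% over all chromosomes. The 2 strong exceptions, named after their values were seen, were both on the left arm. V:4817977-4819248 (q = 1.37e-26) was found in replicate 2 alone, and V:5410952-5413459 (q = 1.25e-41) in replicate 1 alone with q = 2.69e-43. Arm regions found in both had a median width of 1254 bp, those found in neither 197 bp.

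Regions found in a single replicate were split differently on the arms and over all chromosomes. Replicate 2 alone held 97 arm regions (20.4%, interval 17.0 to 24.2) and 73 centre regions (14.4%, interval 11.6 to 17.7), against 12.2% over all chromosomes. Replicate 1 alone held 88 on the arms (18.5%, interval 15.3 to 22.2) and 117 in the centre (23.1%, interval 19.6 to 26.9), against 26.8%. The lists themselves show the same tilt. Replicate 2 listed 419 arm regions and replicate 1 listed 311, a ratio of 1.35, although over all chromosomes replicate 2 had the shorter list, 7115 against 7359. In the centre the ratio was 1.09. On the 10 arms of the other chromosomes replicate 2 listed 3809 regions and replicate 1 listed 3949. Among these arms replicate 2 listed more on the left arm of chromosome II (144 against 113). It also listed more on the left (239 against 223) and right arm (277 against 264) of the X chromosome, and fewer on all the rest. These differences between parts were noticed in the data and were not tested. Replicate 2 also had more uniquely mapped reads, and the part of read depth in this was not tested.

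Of the 419 replicate 2 regions on the arms, 249 overlapped replicate 1 (59.4%, interval 54.7 to 64.0), and in the centre 289 of 401 did (72.1%, interval 67.5 to 76.2; 72.4% over all chromosomes). Of the 311 replicate 1 regions on the arms, 198 overlapped replicate 2 (63.7%, interval 58.2 to 68.8), and in the centre 234 of 367 did (63.8%; 57.8% over all chromosomes). On the arms 197 pairs of regions were each other's largest overlap. Their −log10 q-values correlated with rho = 0.720 and r = 0.750, and their widths with rho = 0.774, across regions that share libraries and are not independent. Replicate 1 had the wider region in 165 of the 197 pairs (83.8%), and in 204 of 231 pairs in the centre (88.3%). Median widths of the arm pairs were 1246 bp for replicate 1 and 657 bp for replicate 2. The q of replicate 1 was lower in 107 arm pairs (54.3%) and in 173 of 231 centre pairs (74.9%), a difference that was not tested. In the arm pairs replicate 1 had a median −log10 q of 6.77 and replicate 2 one of 6.47, and in the centre pairs these medians were 9.29 and 5.45.

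**Figure D5:**
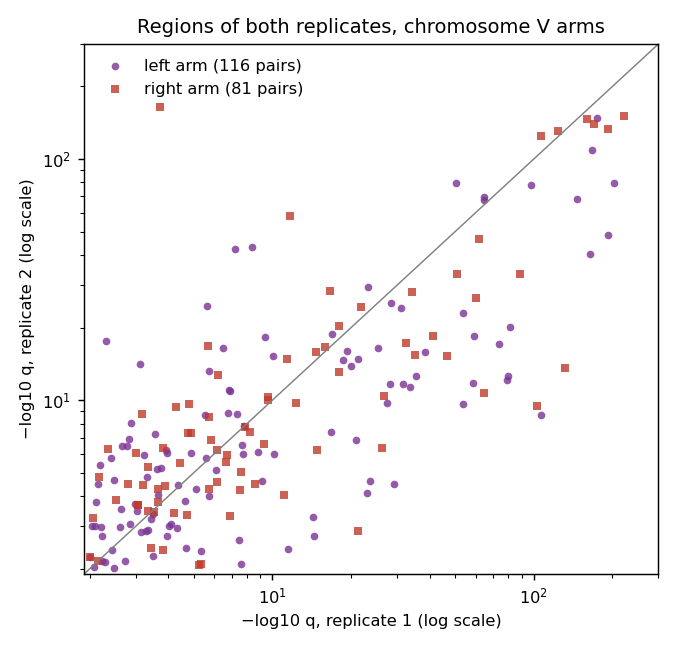
−log10 q in replicate 1 against −log10 q in replicate 2 (both log scales) for 116 left-arm and 81 right-arm pairs of regions that are each other's largest overlap; the line marks equal values. The points lie on both sides of the line, with the lower q in replicate 1 in 107 of 197.

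Some strong arm regions of the replicates have no counterpart in the combined list. Replicate 1 had 33 arm regions outside it (10.6%, against 11.4% over all chromosomes), and replicate 2 had 73 (17.4%, against 13.9%). Of the replicate 1 regions with q below 1e-20, 5 of 58 on the arms were outside it, and 124 of 1501 over all chromosomes. For replicate 2 these numbers were 14 of 43 on the arms and 260 of 883 over all chromosomes. Joined where less than 2000 bp apart, the strong ones outside the combined list mark 11 places, 5 on the left arm and 6 on the right, and 11 more in the centre. On the left, replicate 1 was strongest at V:4130506-4135869 (above) and at V:1149775-1158964, 9190 bp wide with q = 2.39e-193, where replicate 2 reached 2.30e-49. Replicate 2 was strongest on the left at V:5838626-5847019, 8394 bp wide with q = 5.31e-185 and no replicate 1 region, and at V:6275906-6278444 (q = 5.78e-149), where replicate 1 reached 9.30e-175.

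On the right, replicate 1 was strongest at V:14843137-14852074, 8938 bp wide with q = 1.09e-222, where replicate 2 reached 5.50e-151, and at V:16591898-16598925 (above). Replicate 2 was strongest at V:20776650-20780778 (q = 4.27e-168), with no replicate 1 region, and at V:20709675-20717131, 7457 bp wide (q = 2.32e-165), where replicate 1 listed 387 bp with q = 1.86e-04. Both lie within the dense right tip. As every list lacks its strongest regions, a missing partner at this strength cannot be told apart from a region that was too strong to be listed.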

How the data were processed

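Animals were fixed with formaldehyde and their chromatin sonicated before ChIP, per the labels' protocols. Read counts per run are from the deposited sample table, and the 2 runs of each input were summed. Reads were 36 bases long. Eland (alignment) and PeakSeq (calling) are named in the deposited investigation file, with versions not given in the sources used here. The regions are in WormBase WS220 and carry q-values, per the file headers. The authors converted coordinates from an earlier build, which changed the structure of 0 regions on chromosome V.

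Arms and centre are equal parts of the length of chromosome V, taken to end with the last listed region (20904935 bp). Each gap and region belongs to the part that holds its midpoint. Tests ran in scipy 1.17.1 under Python 3.11.15, with pandas 2.3.3 and numpy 2.4.6, and the code was checked on simulated data. Whether the replicates were separate cultures is not in the labels, so their spread may be technical. Named regions are, per arm, the 5 lowest q, 3 widest, 5 longest empty stretches, 5 most remote, the fullest and emptiest window and the 2 lowest-q replicate regions outside the combined list. Members, lists and tests were chosen with earlier results of these data known. Genes and sequences are not given because the gene table at hand describes another build. Alternatives were a stricter q (0.001), the stronger 50%, no narrow regions, merging below 2000 bp, 50% reciprocal overlap, arms of 25% of the length at each end, single lists and other length limits.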

Additional observations from a re-analysis of the deposited data

How the results depend on the processing

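The alternatives gave 72 values, of which 53 had the same direction and call as reported or moved by less than the spread. The ratio of arms to centre in regions per Mb passed the threshold under every alternative run, from 0.400 with arms of 25% of the length at each end to 0.534 with merging below 2000 bp, and from 0.424 to 0.522 in the lists that leave out 1 replicate. The difference in cover lay between -3.58 and -2.18 points without 1 replicate and was -4.50 points after merging. The ratio of left to right arm passed after adjustment with q below 0.001 (1.30), without narrow regions (1.26) and in the single replicate lists (1.33 to 1.43), and, added after seeing the data, without the outermost windows (1.31). It did not pass without the innermost windows, likewise added (1.19, exact binomial test, adjusted p = 0.156), or after merging (1.18, adjusted p = 0.163). It was 1.05 with arms of 25% of the length (adjusted p = 0.901 in the exact binomial test). These tests count clustered regions as independent, so their p-values are too small. Fewer arm than centre regions were in both replicates after merging (-9.26 points, Fisher's exact test, adjusted p = 0.0488), but the sign turned with 50% overlap (0.140 points) and in the stronger 50% (2.60 points). The left minus right share turned with q below 0.001 (-2.65 points) and in the stronger 50% (-3 points). The share in neither turned without narrow regions (-1.51 points). None of these reversed values passed the threshold. The cause of these changes was not tested.

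Empty stretches numbered 73 at a minimum of 50 kb and 11 at 200 kb, by construction, against 29 at 100 kb, and 32 to 38 without 1 replicate. Isolated regions numbered 43 at 25 kb and 4 at 100 kb, 37 in the stronger 50%, and 18 to 34 without 1 replicate, where the list of replicate 1 alone gave 34 against 19 and the left and right arm had equal numbers in each single list. Adding strong replicate regions to the combined list, chosen after seeing the data, gave 29 stretches and 17 isolated regions. Leaving out regions changed by the coordinate conversion changed nothing, as none lies on chromosome V. No paired analysis was possible because the samples that share replicate numbers are ChIP and input, and the inputs have no region list. Arms and centre were instead compared within each replicate, and the differences in cover, -2.18 and -3.58 points, had an SD of 0.994 (n = 2), with no test.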
